A study of Sus scrofa with 9 samples.

Results

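The lysosome genes described here are the rows of the deposited gene table that carry the KEGG pathway term Lysosome, without the cathepsins (names starting with CTS), CD68, SLC11A1 and SLC11A2. Of 114 rows with the term, 14 were dropped by name, and 93 of the remaining 100 had a mean FPKM (fragment counts scaled for transcript length and for the depth of the library) of at least 0.1 over the 9 libraries. These 93 genes are the members, out of 21357 genes in the table. The 7 rows under the minimum were ATP6V0A4, DNASE2B, PSAPL1, AP1M2, AP3B2, LAMP3 and LOC100154047, the last of which the table describes as cathepsin G. The members just inside the minimum were AP4E1 at 0.220 FPKM and NAPSA at 0.228 FPKM, and the row just outside was LAMP3 at 0.0658 FPKM. All 93 members passed the same minimum within each of the 3 comparisons.

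The libraries came from the abdominal aorta of Tibetan minipigs, a small pig breed, in 3 groups of 3. NC pigs were normal controls kept on a normal diet over 24 weeks, H24 pigs had atherosclerosis after 24 weeks of a high-fat diet, and H8 pigs had hypercholesterolemia after 8 weeks of that diet. NC and H24 pigs were males bought at 3 to 4 months of age, and 3 of each group were chosen at random for sequencing. H8 is known from the sample labels only, so the age and sex of its pigs are not given here, and the 24-week controls are not matched to it for time on diet. No gene was altered in any group, and the study's diet for the H24 pigs was rich in fat and cholesterol. Values listed for a group stand in the order of replicates 1, 2 and 3. Nothing in the labels pairs pigs across groups, and for H8 nothing says that its libraries came from separate pigs, so p-values there measure the spread between these libraries.

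Lysosomes are acidic organelles in which cells break down material taken up by endocytosis, phagocytosis and autophagy. Soluble hydrolases are tagged with mannose 6-phosphate in the Golgi, carried to the lysosome by sorting receptors, clathrin and adaptor complexes, and work at the low pH that the V-ATPase proton pump maintains. In the artery wall, the lysosomes of macrophages and smooth muscle cells cleave the cholesteryl esters of lipoproteins that these cells take up, and the freed cholesterol leaves through NPC2 and NPC1.

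Total counts ran from 44094263 (H24 replicate 2) to 75787978 per library. H24 replicate 3 stood apart: its log2 CPM correlated across genes at 0.918 and 0.889 with the other H24 libraries, against 0.971 to 0.974 among NC libraries. Its 6 smooth muscle markers summed to 1667 FPKM, against 11090 to 13040 in NC, 9590 to 12901 in H8 and 7574 and 11068 in the other H24 libraries. The 7 macrophage and monocyte markers (CD68, CD163, CSF1R, CD14, MSR1, AIF1, MRC1) summed to 15.3 to 16.9 FPKM in NC, to 79.6, 13.7 and 43.2 in H8 and to 142, 80.3 and 931 in H24, and none of them was at 0 in any library. Of these 7 markers, 7 were up-regulated in H24/NC, against 9.95% of all genes, and 6 of them without H24 replicate 3, against 6.49%. The 4 osteoclast markers matched by name (CALCR, OSCAR, DCSTAMP, OCSTAMP) summed to at most 0.130 FPKM in NC and to 30.8 in H24 replicate 3, with OCSTAMP at 0 in every NC library; all 4 were below 0.1 FPKM in NC, so they were tested only through the groups where they are high. H8 replicate 2, with the lowest macrophage marker sum of the H8 libraries, also differed from the other H8 libraries in the members described below. Its sum lay below that of every NC library in FPKM, which lacks TMM, the scaling between libraries used in the tests. The TMM factor of H8 replicate 2 was 0.862, against 0.9985 to 1.0425 in NC, and the sums were not compared after scaling. Of the adipocyte markers, 4 of 5 tested were down-regulated in H8/NC, against 2.27% of all genes. Among them was ADIPOQ with 4.44 to 14.6 FPKM in NC and at most 0.106 FPKM in H8, while FABP4 was not called. Of 6 tested in H24/NC, LEP was up-regulated and LIPE down-regulated, against 9.95% and 1.52% of all genes. In whole-tissue RNA, more cells of a type and more RNA per cell cannot be told apart, and the part of these marker shifts in the results below was not tested.

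In NC aorta the 93 members had a median level of 9.36 FPKM. The highest were CD63, a tetraspanin of late endosomes, at 308 ± 17.8 FPKM (SD, n = 3), PSAP, the precursor of the saposins, at 263 ± 42.9, and LAMP1, a main glycoprotein of the lysosomal membrane, at 142 ± 12.9. The 5 highest members, which also include LAPTM4A and ATP6V0C, made up 42.7% of the members' FPKM in NC. At the other end, 8 members were below 1 FPKM in NC, among them ACP5, ATP6V0D2, LOC100520753 and NAPSA. By the mean of H24, PSAP came first and ATP6V0C next, ahead of CD63, and ACP5 went from rank 87 to rank 11. These ranks rested on H24 replicate 3: by the mean of replicates 1 and 2, CD63 ranked 2, ATP6V0C 4 and ACP5 60. The members' share of all counts was 0.806%, 0.734% and 0.773% in NC, 0.887%, 0.748% and 0.826% in H8, and 1.07%, 0.972% and 3.32% in H24. Thus H24 replicates 1 and 2 lay above all other libraries except replicate 3 of their own group, which was far above them.

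**Figure D1:**
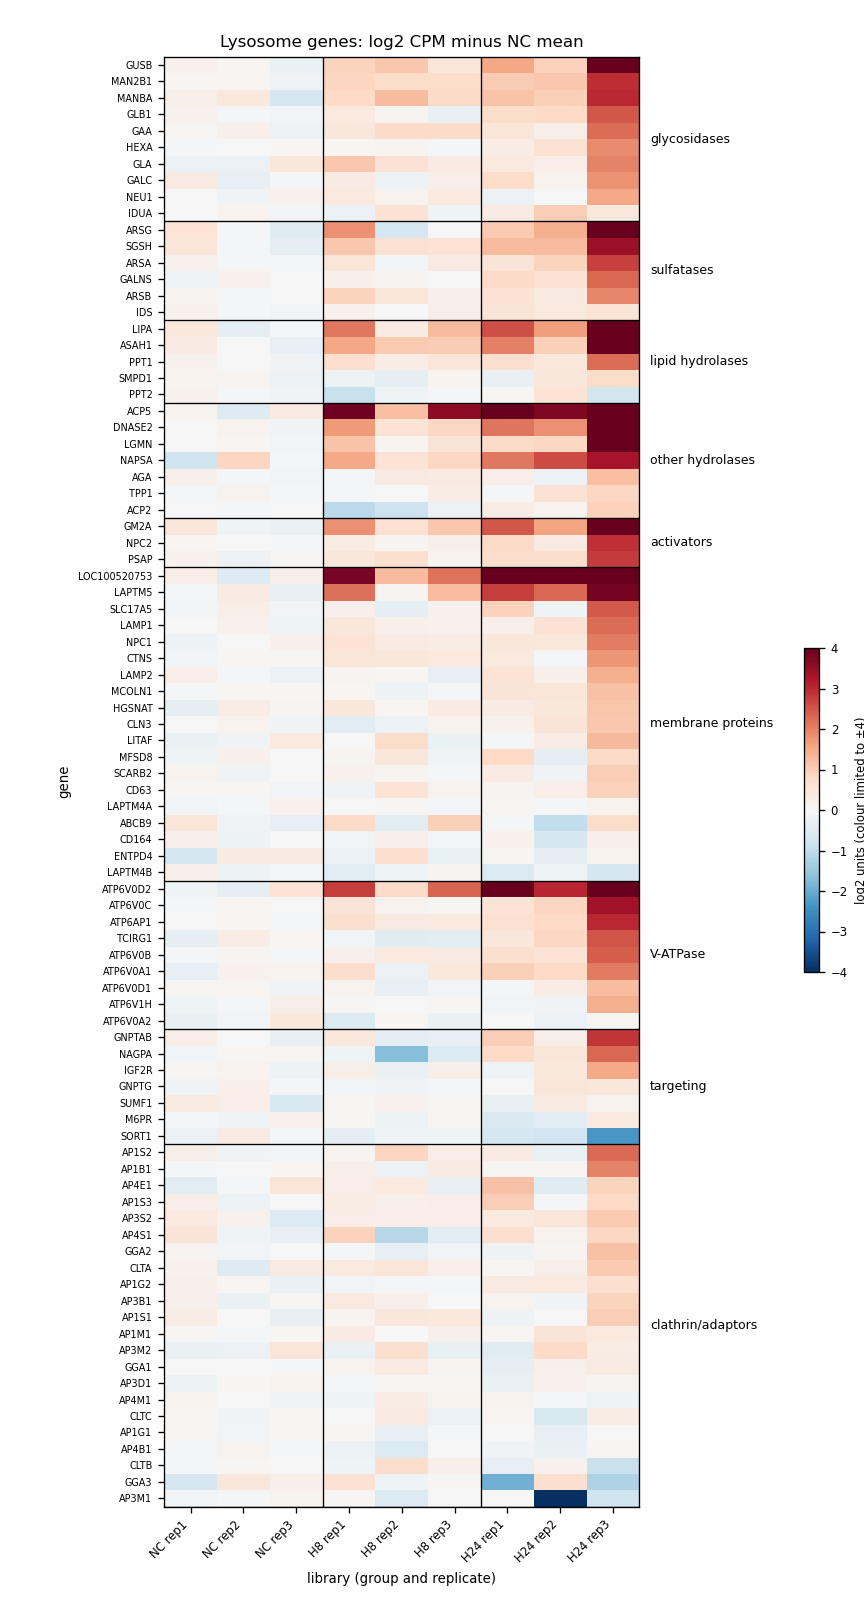
Members (rows; a few that are not reported singly are left out, grouped by role and ordered within a role by H24/NC log2 fold change) in each of the 9 libraries (columns), as log2 CPM minus the mean of the 3 NC libraries, with colour limited to 4 log2 units in either direction. H24 replicate 3 is the highest library for 70 of the 93 members, and the rows of clathrin and adaptor proteins stay close to the NC mean in most libraries.

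The comparison H24/NC asks which lysosome genes differ between the atherosclerotic and the normal aorta at 24 weeks. A member was called up- or down-regulated by the thresholds of the study, with a log2 fold change above 1 or below -1 and p under 0.05 before adjustment in edgeR's quasi-likelihood test. By this rule 33 members were up-regulated, against 9.95% of all 14828 genes tested, and 1, SORT1, was down-regulated, against 1.52% of all genes. The median log2 fold change was 0.64 over the members and 0.01 over all genes, and 80 of 93 members were above 0, against 50.6% of all genes. All 3 H24 libraries exceeded all 3 NC libraries in 43 members, against 12.8% of all genes, and lay below them in 1, SORT1, against 7.8%. Up-regulation was found for 6 of 9 V-ATPase subunits, 3 of 4 activators and soluble transfer proteins, 5 of 7 sulfatases, 3 of 5 lipid hydrolases, 4 of 7 other hydrolases, 6 of 13 glycosidases, 4 of 19 membrane proteins, 2 of 7 targeting and sorting proteins and 0 of 22 clathrin and adaptor proteins. No member passed a Benjamini-Hochberg adjusted p under 0.05 over all genes in edgeR, where no gene of the table did. The lowest adjusted p of a member was 0.132, 36 members had an unadjusted p under 0.05, against 13.9% of all genes, and with DESeq2 14 members passed the adjusted threshold, against 6.43% of all genes.

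The called members stood highest in the same library. H24 replicate 3 was the highest of the 9 libraries in 70 of the 93 members, against 29.2% of all genes, and its median ratio to the mean of the other H24 libraries was 2.30 over the members and 0.996 over all genes. It was the highest in all 33 up-regulated members, which were chosen for high values in H24, with ratios of 1.93 to 31.8 and a median of 4.04. Without it, 71 of the 93 members had a log2 fold change above 0, against 48.1% of all genes. The median over the members was 0.35, against -0.02 over all genes. All 33 up-regulated members were still above NC, which their choice from these same libraries made likely. In this fit 13 of the 93 members passed the thresholds, against 6.49% of all genes, and all 13 were among the 33. The adjusted threshold of edgeR was passed by 8 of the 93 members, against 2.1% of all genes. These 8 were LOC100520753, ACP5, LAPTM5, DNASE2, ATP6V0D2, LIPA, GM2A and MAN2B1. The count of up-regulated members was also 18, 17 and 13 without NC replicates 1, 2 and 3, and 37 and 43 without H24 replicates 1 and 2. Leaving out each of the 6 libraries in turn, 12 members were called every time: the 8 above with GUSB, ASAH1, NAPSA and SGSH. For fits without any library other than H24 replicate 3, the share of all genes called was not counted. Nor was the share of genes called in every fit, here or in the other comparisons. NAPSA had an NC mean under the minimum of 0.1 FPKM and passed it through the groups where it is high; without it, the counts are 32 called with all libraries, 12 without H24 replicate 3 and 11 in every fit, of 92 members.

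**Figure D2:**
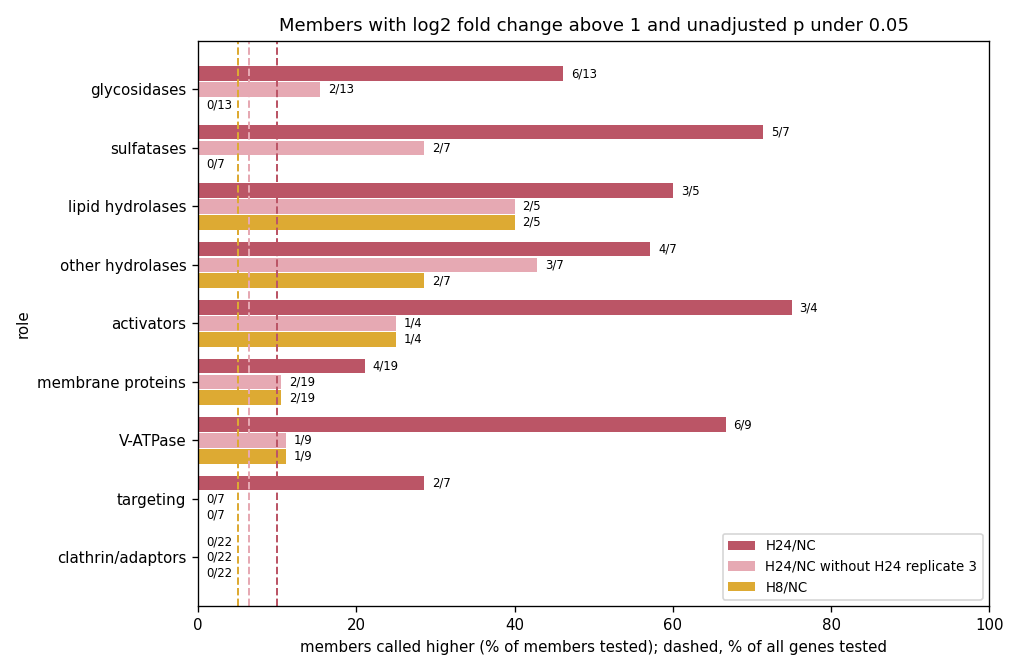
Percent of the tested members of each role (vertical axis) that were up-regulated in H24/NC, in H24/NC without H24 replicate 3 and in H8/NC, with the number called of the number tested beside each bar and the percent of all genes called as dashed lines of the same colours. V-ATPase subunits go from 6 of 9 to 1 of 9 without H24 replicate 3, and no clathrin or adaptor protein is called in any of the 3.

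Among the lipid hydrolases, LIPA and ASAH1 were up-regulated strongly and PPT1 more weakly. LIPA, the lysosomal acid lipase that cleaves cholesteryl esters and triglycerides (chromosome 14, 101125471 to 101193614 of Sscrofa11.1, minus strand), read 5.31, 2.92 and 3.88 FPKM in NC, 15.8, 4.23 and 9.13 in H8 and 24.6, 12.3 and 91.5 in H24. Every H24 library lay above every NC library, and H8 replicate 2 alone lay within the NC range. The log2 fold change in H24/NC was 3.39 ± 0.76 (SE; edgeR adjusted p = 0.135), and 2.16 without H24 replicate 3. ASAH1, the acid ceramidase (chromosome 17, 5712056 to 5750784, minus strand), read 9.64, 7.29 and 6.01 FPKM in NC, 20.7, 13.2 and 14.6 in H8 and 31.7, 14.2 and 177 in H24. All 6 libraries of the high-fat diet were above all NC libraries, and its H24/NC log2 fold change was 3.26 ± 0.91. PPT1, a thioesterase that removes palmitate from proteins, had a log2 fold change of 1.35 ± 0.50, and 0.55 without H24 replicate 3, where the call was lost, as it was without any one NC library. PPT1 overlaps CAP1 on the opposite strand, a gene of higher FPKM with a log2 fold change of -0.24. SMPD1, the acid sphingomyelinase, read 10.1, 9.53 and 7.86 FPKM in NC and 7.83, 12.1 and 15.2 in H24, with overlapping groups and a log2 fold change of 0.34 ± 0.29 that passed no threshold.

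Of the proteins that assist lipid breakdown, 3 of 4 were up-regulated. GM2A, the activator protein for breakdown of the ganglioside GM2 (chromosome 16, 71740319 to 71754975, minus strand), read 13.6, 8.31 and 8.16 FPKM in NC, 32.4, 12.7 and 19.9 in H8 and 57.6, 28.6 and 299.98 in H24. The H24 libraries did not overlap NC, and the log2 fold change was 3.67 ± 0.89 with all libraries and 2.07 without H24 replicate 3. PSAP, whose saposins activate several sphingolipid hydrolases, read 299, 216 and 275 FPKM in NC and 444, 418 and 1838 in H24, a log2 fold change of 1.76 ± 0.63. NPC2, the soluble protein that takes up cholesterol in the lumen, read 65.5, 59.4 and 58.2 FPKM in NC and 109, 76.8 and 465 in H24, a log2 fold change of 1.81 ± 0.67. For PSAP and NPC2 the groups did not overlap, but the calls were lost without H24 replicate 3 (log2 fold changes of 0.69 and 0.58) and without any one of the NC libraries.

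**Figure D3:**
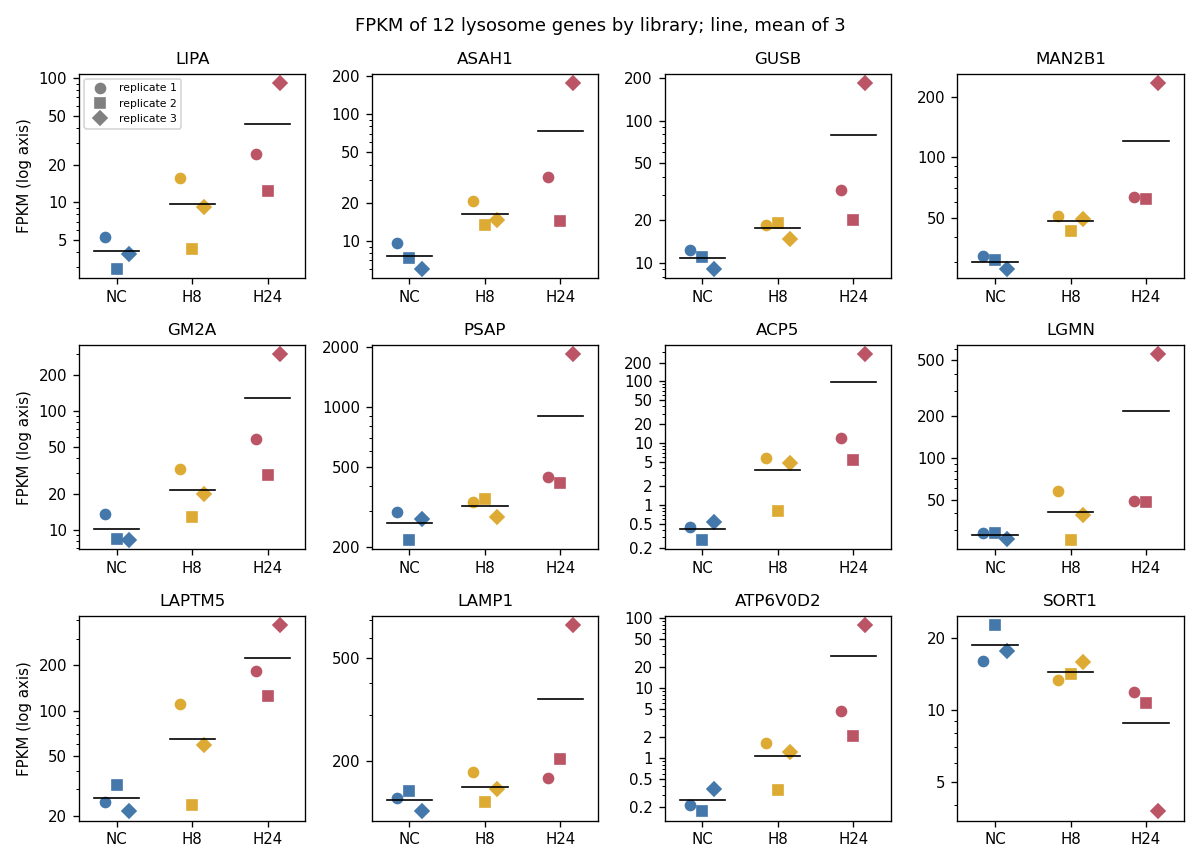
FPKM on a log axis of 12 members, with 1 point per library by group, marker shapes for the replicate number and a line at the mean of 3. In all but SORT1 the highest point is H24 replicate 3, and in LIPA, GM2A, ACP5, LAPTM5 and ATP6V0D2 H8 replicate 2 is the lowest of the H8 libraries.

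All 13 glycosidases had a log2 fold change above 0 in H24/NC, and 6 were up-regulated. The largest was that of GUSB, the beta-glucuronidase that trims glycosaminoglycans, with 12.3, 10.96 and 9.08 FPKM in NC, 18.5, 19.2 and 14.7 in H8 and 32.5, 20.0 and 184 in H24. Its log2 fold change was 2.86 ± 0.83, and every library of the high-fat diet was above every NC library. MAN2B1, the lysosomal alpha-mannosidase and by the mean of the 9 libraries the most abundant glycosidase, had the same order, with 32.1, 30.9 and 27.9 FPKM in NC, 51.3, 43.2 and 49.3 in H8 and 63.8, 62.3 and 234 in H24. Its log2 fold change was 1.97 ± 0.56, and 1.03 ± 0.19 without H24 replicate 3 (edgeR adjusted p = 0.0422). MANBA, the beta-mannosidase, had a log2 fold change of 1.96 ± 0.63, and GLB1, the acid beta-galactosidase, of 1.57 ± 0.50. Both lost their calls without H24 replicate 3, at 0.97 and 0.75, and also without NC replicate 3; GLB1 lost it without NC replicate 2 too. MANBA overlaps NFKB1, of higher FPKM, on the opposite strand.

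HEXA, the alpha subunit of beta-hexosaminidase, read 18.9, 18.9 and 20.5 FPKM in NC and 24.8, 28.8 and 72.6 in H24, a log2 fold change of 1.10 ± 0.43 that passed the thresholds, but not without H24 replicate 3 (0.44) or any one NC library. The enzymes that are deficient in Fabry and Pompe disease, GLA and GAA, had log2 fold changes of 1.07 ± 0.52 and 1.27 ± 0.54 with unadjusted p-values of 0.0762 and 0.0524 in edgeR, and were not called. GLA overlaps RPL36A, a ribosomal protein gene at 217 FPKM, on the opposite strand.

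The sulfatases, which remove sulfate from glycosaminoglycans and sulfolipids, were up-regulated in 5 of 7. SGSH, the heparan N-sulfatase, read 2.62, 1.72 and 1.42 FPKM in NC, 3.73, 2.41 and 2.65 in H8 and 4.68, 4.40 and 20.8 in H24, with no overlap between H24 and NC. Its log2 fold change was 2.36 ± 0.67, and 1.22 without H24 replicate 3. ARSG, the other sulfatase acting on heparan sulfate that was called, read 1.66, 1.02 and 0.804 FPKM in NC and 2.43, 2.96 and 22.2 in H24, a log2 fold change of 2.98 ± 0.92. That was 1.1999 without H24 replicate 3, where it was still called, and the call was lost without NC replicate 3. It overlaps WIPI1, of higher FPKM, on the opposite strand. ARSA, which desulfates sulfatide, and GALNS, which acts on keratan and chondroitin sulfate, had log2 fold changes of 1.72 ± 0.58 and 1.43 ± 0.48, and 0.70 and 0.67 without H24 replicate 3, where both calls were lost; ARSA was also lost without NC replicate 2 or 3, and GALNS without NC replicate 1 or 3.

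Of the proteases, nucleases and phosphatases, ACP5, NAPSA, DNASE2 and LGMN were up-regulated. ACP5 encodes the tartrate-resistant acid phosphatase, a marker enzyme of osteoclasts that activated macrophages also make (chromosome 2, 70203114 to 70209899, minus strand). It read 0.444, 0.271 and 0.521 FPKM in NC, 5.66, 0.791 and 4.68 in H8 and 12.1, 5.24 and 275 in H24. It had the largest change of all members, a log2 fold change of 7.88 ± 1.73 (edgeR adjusted p = 0.132), and 4.36 ± 0.43 without H24 replicate 3 (edgeR adjusted p = 0.00516). DNASE2, the acid endonuclease that digests DNA of engulfed cells, read 5.84, 6.14 and 5.32 FPKM in NC, 17.5, 7.13 and 10.03 in H8 and 26.7, 19.8 and 233 in H24, a log2 fold change of 4.00 ± 0.998. For ACP5 and DNASE2, all 6 libraries of the high-fat diet were above all NC libraries.

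LGMN, an asparaginyl endopeptidase and the most abundant member of its group over the 9 libraries, read 28.5, 28.6 and 26.1 FPKM in NC, 57.8, 25.6 and 38.7 in H8 and 48.8, 48.1 and 554 in H24. The log2 fold change of 2.96 ± 1.0002 was 0.78 without H24 replicate 3, and the call was also lost without any one NC library. The napsin gene NAPSA was low in every library, at 0.0354, 0.121 and 0.0642 FPKM in NC and 0.316, 0.418 and 0.709 in H24, and its log2 fold change was 2.65 ± 0.66. Its mean in NC was under the minimum of 0.1 FPKM, so it entered through the other groups and had to differ from NC. ACP2, the lysosomal acid phosphatase, read 8.71, 8.09 and 8.75 FPKM in NC, 3.82, 4.11 and 7.05 in H8 and 10.8, 9.08 and 16.3 in H24, so that every H8 library lay below NC and every H24 library above it.

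**Figure D4:**
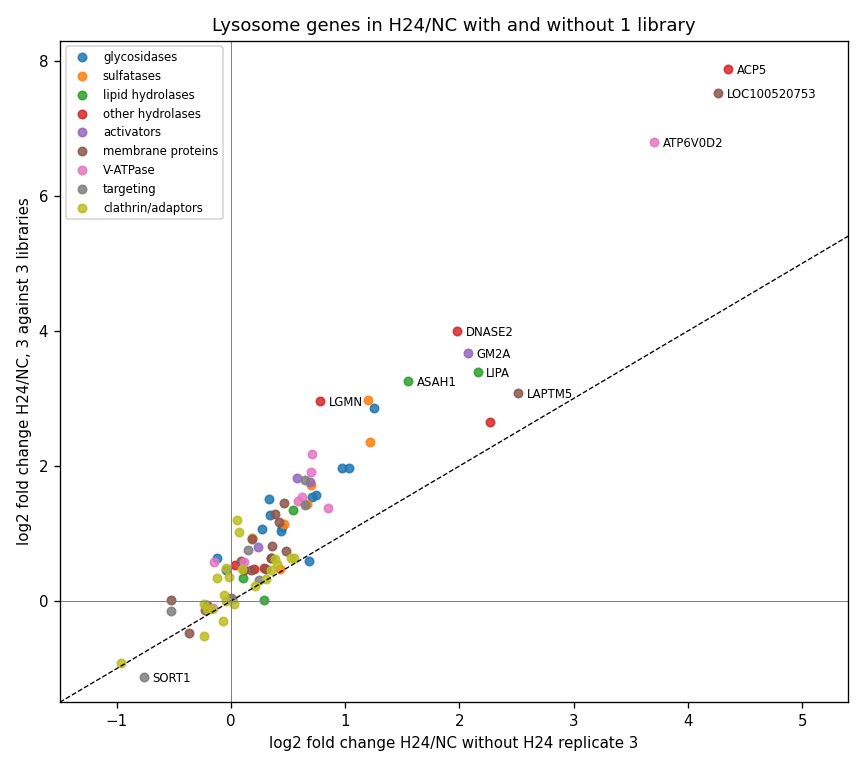
H24/NC log2 fold change of the 93 members with all 6 libraries (vertical axis) against that without H24 replicate 3 (horizontal axis), coloured by role, with a dashed line of equality. ACP5, LOC100520753 and ATP6V0D2 are far from the rest on both axes, LGMN is at 2.96 against 0.78, and most members lie above the line.

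Membrane proteins were called in 4 of 19. LAPTM5, a lysosomal membrane protein of blood cells (chromosome 6, 87363665 to 87390238, minus strand), read 24.9, 32.1 and 21.5 FPKM in NC, 111, 23.5 and 59.1 in H8 and 182, 125 and 369.95 in H24. It had the smallest p of all members, with a log2 fold change of 3.08 ± 0.46 (edgeR adjusted p = 0.132), and H24 replicate 3 was less far from its group than in most called members. Its relatives were not called: LAPTM4A had a log2 fold change of 0.05 ± 0.21 and LAPTM4B of -0.47 ± 0.23. LAPTM5 made up 9.58% to 16.1% of the summed FPKM of the 3 genes in NC, 41.4%, 13.1% and 25.02% in H8 and 49.9%, 42.4% and 67.2% in H24. LAPTM4A and LAPTM4B are named for this comparison after their values were seen.

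LOC100520753, which the table describes as macrosialin, the product name of CD68 (chromosome 8, 28306016 to 28313150, plus strand), read 0.178, 0.0957 and 0.172 FPKM in NC, 1.93, 0.297 and 0.644 in H8 and 3.46, 2.39 and 76.7 in H24. Its log2 fold change was 7.52 ± 1.61. Whether some of its reads belong to CD68 is uncertain, since reads of similar genes may have been split between them; CD68 itself, which is no member, had a log2 fold change of 5.605 in H24/NC. LAMP1 read 144, 153 and 128 FPKM in NC and 171, 204 and 670.2 in H24, a log2 fold change of 1.28 ± 0.54, and NPC1, which exports cholesterol through the membrane, read 6.31, 6.83 and 8.29 in NC and 10.2, 9.25 and 29.4 in H24, a log2 fold change of 1.17 ± 0.47. LAMP1 and NPC1 had no overlap between the groups but were lost from the calls without H24 replicate 3 (0.39 and 0.42) and without any one NC library. CD63, LAMP2, a lysosomal membrane protein required for autophagy, SCARB2, a lysosomal membrane receptor, and MCOLN1, a calcium channel, had log2 fold changes of 0.46, 0.81, 0.46 and 0.74 and were not called.

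Of the V-ATPase subunits, 1 stood far above the others in its change. ATP6V0D2, the d2 subunit found in osteoclasts and some macrophages (chromosome 4, 50694189 to 50749378, minus strand), read 0.212, 0.174 and 0.363 FPKM in NC, 1.62, 0.353 and 1.23 in H8 and 4.72, 2.07 and 78.0 in H24. The change was 6.79 ± 1.55 on the log2 scale (edgeR adjusted p = 0.135), and 3.71 without H24 replicate 3. ATP6V0D1, the widely expressed d1 subunit, read 33.2, 32.2 and 29.1 FPKM in NC and 31.6, 37.5 and 74.2 in H24, with overlapping groups and a log2 fold change of 0.58 ± 0.35. ATP6V0D2 accounted for 0.636%, 0.537% and 1.23% of the summed FPKM of the d subunits in NC, 4.75%, 1.64% and 4.14% in H8 and 13.0%, 5.23% and 51.3% in H24. Thus d1 stayed the main d subunit by FPKM in 8 of the 9 libraries.

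The other called subunits changed less. ATP6V0C, the proton-binding c subunit and the most abundant pump member, read 96.1, 101 and 98.4 FPKM in NC and 152, 173 and 1024 in H24, a log2 fold change of 2.18 ± 0.76. ATP6AP1, an accessory protein of the pump, had a log2 fold change of 1.92 ± 0.66, TCIRG1, the a3 subunit, of 1.54 ± 0.56, and ATP6V0A1, the a1 subunit, of 1.37 ± 0.39. All 4 lost their calls without H24 replicate 3, at 0.70, 0.70, 0.62 and 0.85, the first 3 also without NC replicate 1 or 3, and the first 2 also without NC replicate 2. TCIRG1 made up 44.8% to 51.9% of the a subunits in NC, 37.3% to 41.2% in H8 and 44.5%, 53.4% and 62.9% in H24. Of 12 further V-ATPase genes that were tested but do not carry the Lysosome term, 0 were up-regulated, against 9.95% of all genes. The count was also 0 without H24 replicate 3, against 6.49% of all genes. Their median log2 fold change was 0.63 with that library and 0.02 without it.

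**Figure D5:**
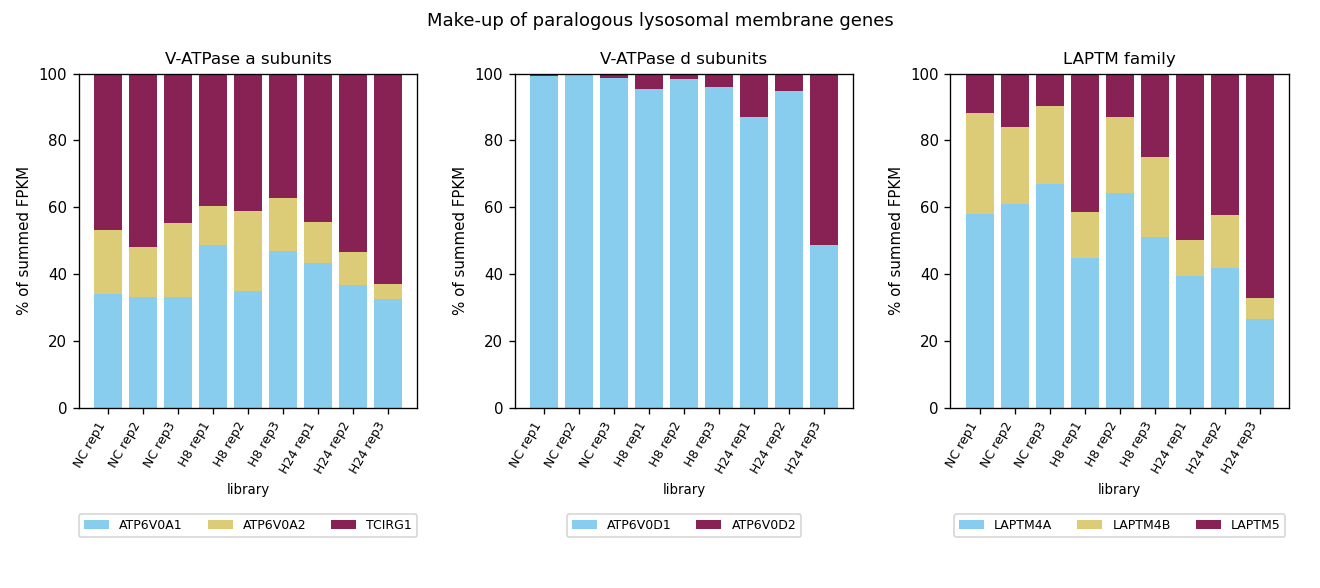
Share of the summed FPKM (vertical axis, percent) taken by each gene of the V-ATPase a subunits, the V-ATPase d subunits and the LAPTM family in each of the 9 libraries. ATP6V0D2 reaches 51.3% of the d subunits in H24 replicate 3, against 5.23% and 13.0% in the other H24 libraries, and LAPTM5 takes 42.4% to 67.2% of its family in H24.

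Genes for tagging and sorting of hydrolases moved in different directions. GNPTAB, which encodes the enzyme that starts the mannose 6-phosphate tag, read 10.0, 8.18 and 6.87 FPKM in NC, 10.3, 5.37 and 6.41 in H8 and 17.3, 9.54 and 61.1 in H24, a log2 fold change of 1.79 ± 0.66. It was the only up-regulated member whose H24 and NC libraries overlapped. NAGPA, the enzyme that uncovers the tag, read 2.47, 2.69 and 2.77 FPKM in NC, 2.20, 0.679 and 1.75 in H8 and 4.83, 3.59 and 13.2 in H24, a log2 fold change of 1.43 ± 0.50. Both calls were lost without H24 replicate 3 (0.65 and 0.64) and without any one NC library.

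SORT1, which encodes sortilin, a sorting receptor that carries prosaposin among other cargo, was the only down-regulated member. It read 16.02, 22.6 and 17.6 FPKM in NC, 13.3, 14.1 and 15.9 in H8 and 11.8, 10.7 and 3.77 in H24. By FPKM, which carries no TMM scaling, no H8 or H24 library reached the NC range. In TMM-scaled log2 CPM, H8 replicates 2 and 3 lay within it. They were at -0.164 and -0.183 from the NC mean, against -0.234 in NC replicate 1. The H24 libraries stayed below it, and the H24/NC log2 fold change was -1.13 ± 0.43 (edgeR adjusted p = 0.320). The call was lost without H24 replicate 3 (-0.76), without NC replicate 2 and without NC replicate 3. The mannose 6-phosphate receptors IGF2R and M6PR had log2 fold changes of 0.75 ± 0.43 and -0.15 ± 0.30 and were not called. IGF2R made up 56.6% to 67.3% of the summed FPKM of these receptors in NC and 69.3%, 75.3% and 78.4% in H24, above every NC and H8 library.

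Clathrin chains and the adaptor proteins that load vesicles were the only role with no call in any of the 3 comparisons. The 22 genes had a median log2 fold change of 0.33 in H24/NC, which was 0.01 without H24 replicate 3, and log2 fold changes between -0.91 and 1.19. By complex, the medians were 0.46 over the 7 AP-1 subunits, 0.23 over the 5 AP-3 subunits, 0.25 over the 4 AP-4 subunits, 0.09 over the 3 GGA adaptors and -0.04 over the 3 clathrin chains. GGA2, the most abundant of the role by the mean of the 9 libraries though below AP3M1 in NC, read 46.2, 38.0 and 42.2 FPKM in NC and 38.5, 44.3 and 95.7 in H24, with overlapping groups. The lowest value belonged to AP3M1, which read 46.8 to 55.6 FPKM in NC and 51.4, 2.03 and 28.7 in H24. AP3M1 overlaps VCL, of higher FPKM, on the opposite strand, and is named here after its values were seen. In all, 14 members overlap a gene of higher FPKM, 3 of them among the up-regulated members.

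Sorted by what they degrade, by textbook groups made after the values were seen, the genes of every substrate group had positive medians in H24/NC. All 3 genes of cholesterol release (LIPA, NPC1, NPC2) were up-regulated, as were 6 of 12 for glycosphingolipids and sphingomyelin, 5 of 9 for chondroitin, dermatan and keratan sulfate, 4 of 7 for oligosaccharides of glycoproteins and 2 of 6 for heparan sulfate. Without H24 replicate 3 the counts were 1, 2, 1, 1 and 2 in the same order. Of all genes, 9.95% were up-regulated with that library and 6.49% without it. Some genes act on more than 1 substrate and count in each of these groups.

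The comparison H8/NC sets the aorta after 8 weeks of the diet against the 24-week controls. There, 8 members were up-regulated, against 5.11% of all 14336 genes tested, and 0 were down-regulated, against 2.27%. The 8 were ACP5, ATP6V0D2, LOC100520753, LAPTM5, LIPA, ASAH1, GM2A and DNASE2, each of which was also called in H24/NC, which shares the NC libraries. The log2 fold changes in H8/NC were 3.27 ± 0.67 for ACP5, 2.79 ± 0.68 for LOC100520753, 2.19 ± 0.62 for ATP6V0D2, 1.41 ± 0.48 for LAPTM5, 1.38 ± 0.43 for LIPA, 1.24 ± 0.34 for GM2A, 1.22 ± 0.24 for ASAH1 and 1.12 ± 0.32 for DNASE2. The median over the members was 0.20, against 0.01 over all genes, and 72 of 93 members were above 0, against 51.5% of all genes. Of the members, 0 passed the adjusted threshold in edgeR, against 0.0279% of all genes, while 21 had an unadjusted p under 0.05, against 14.8% of all genes, and DESeq2 gave 7, against 4.3% of all genes. By FPKM, which carries no TMM scaling, all H8 libraries were above all NC libraries in 12 members, against 6.91% of all genes. They were below them in 4, against 15.9%.

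The H8 libraries differed among themselves. By FPKM, the order replicate 1 above 3 above 2 was found in 27 of the 33 members up-regulated in H24/NC. It was found in 40 of all 93, against 23% of all genes, and the macrophage marker sums had the same order. Also by FPKM, H8 replicate 2 lay within or below the NC range in 22 of the 33, while H8 replicate 1 was above all NC libraries in 29. FPKM carries no TMM scaling, and H8 replicate 2 had the lowest TMM factor of all libraries, 0.862. In TMM-scaled log2 CPM some of the 22 lay above NC. LGMN, for example, was at 0.119 from the NC mean in H8 replicate 2, against at most 0.085 in NC. The 33 were chosen for low values in these same NC libraries, which makes H8 values above NC more likely. Neither position was counted over all genes or all 93 members, so these counts alone show no excess in H8. Without H8 replicate 1, 4 members were called in H8/NC (ACP5, ATP6V0D2, LOC100520753 and ASAH1), and these 4 were called with any one of the 6 libraries left out. LIPA was also lost without NC replicate 2, and LAPTM5 without NC replicate 1 or 3. MAN2B1 had the lowest unadjusted p of H8/NC, 0.000493 (edgeR adjusted p = 0.126), with a log2 fold change of 0.80 ± 0.13 that was too small for the call. GUSB and GAA were also higher with small errors, at 0.84 ± 0.20 and 0.67 ± 0.17, and ACP2 was lower, at -0.64 ± 0.23.

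Between 8 and 24 weeks of the diet (H24/H8), 20 members were up-regulated, against 7.22% of all 14788 genes tested, and 0 were down-regulated, against 3.05%. The median log2 fold change was 0.53, against 0.04 over all genes, and 77 of 93 members were above 0, against 53% of all genes. Of the 20, 19 were also called in H24/NC, which shares the H24 libraries, and the other was ACP2. In edgeR 0 passed the adjusted threshold, against 0.0135% of all genes, 26 had an unadjusted p under 0.05, against 13.7% of all genes, and DESeq2 gave 4, against 4.4% of all genes. Without H24 replicate 3, 2 members were up-regulated, against 3.75% of all genes, 0 passed the adjusted threshold, against 0.0274%, and 61 were above 0, against 49.8%, with a median of 0.12. The counts were 3 and 4 without H8 replicates 2 and 3, 15 without H8 replicate 1, and 30 and 33 without H24 replicates 1 and 2. The only member called in each of these fits was NAGPA, with a log2 fold change of 2.05 ± 0.60 (edgeR adjusted p = 0.336). TCIRG1, with 1.84 ± 0.53, and ACP2, with 1.10 ± 0.32, had slightly smaller p-values but lost their calls without H24 replicate 3 at 0.96 and 0.83, and ACP2 also without H8 replicate 1.

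Over the 3 groups, mean FPKM rose in the order NC, H8, H24 in 50 of the 93 members, against 19.4% of all genes. The step sizes differed: ACP5 went from a mean of 0.412 ± 0.128 FPKM in NC to 3.71 ± 2.57 in H8 and 97.3 ± 154 in H24 (SD, n = 3), and MAN2B1 from 30.3 ± 2.18 to 47.9 ± 4.21 and 120.1 ± 98.9. The SD of H24 exceeded its mean in ACP5, as it did in GM2A, ASAH1, DNASE2, ATP6V0C, LGMN, GUSB, ATP6V0D2, LOC100520753 and ARSG. SORT1 fell in the same order, from 18.8 ± 3.44 to 14.4 ± 1.32 and 8.78 ± 4.37.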

How the data were processed

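The authors mapped paired-end reads of poly(A) mRNA to the pig genome (Sscrofa11.1) with HISAT2 2.0 and deposited a table of FPKM values from StringTie 1.3.0. The submitters' processing notes also list Bowtie 0.12.2 and a mouse build, whose role is not given in the sources used here. The same deposited table holds estimated counts, whole and not normalized for depth. How the counts were made, the annotation release and the strand setting are not given in the sources used here. The extraction text speaks of an adipose type, while the tissue label is the abdominal aorta. The KEGG terms are those of the table. The table names 84 members, and 9 took the symbol of their NCBI gene number in RefSeq.

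Counts were tested with edgeR 4.0.16 (R 4.3.3, read with the data.table package, version 1.17.8) on the whole table for each pair of groups: TMM, a minimum of 0.1 for the mean FPKM of the libraries compared, and the two-sided quasi-likelihood test. The standard error is the log2 fold change divided by the root of the F statistic. Alternatives were DESeq2 1.42.0, limma 3.58.1 on log2(FPKM + 0.1) and log2(FPKM + 1), other scalings and filters, all 9 libraries in 1 fit, a replicate block and each library left out. A floor of 3 counts is 0.0396 to 0.0680 CPM, for counting error only, and the lowest member count was 14. Between libraries, chi-square per degree of freedom was at least 187, so none was counted as a repeat. A simulation of H24/NC gave 200 of 14828 genes a true log2 fold change of 2 in size, some up and some down. No simulated library was made to stand apart from its group, as H24 replicate 3 did in the measured data. Before adjustment, 182 of the 200 were recovered, with 511 unchanged genes called falsely. At the adjusted threshold 139 of the 200 passed, with 7 others. Whether this recovery carries over to the measured libraries, where 0 genes passed that threshold in edgeR, was not tested.

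The members, roles and lists were chosen with earlier results of these data known. Named members are, per role, those called with the smallest p in H24/NC (4, or 6 for glycosidases and membrane proteins), the most abundant, members called down, up to 5 per direction with the smallest p in the other comparisons, and 28 textbook genes, of which a few are not reported here. In H24/NC, 9.95% of all genes were up-regulated. Of the marker lists for other cells, 3 of 4 T cell genes, 2 of 5 neutrophil genes and 1 of 6 adipocyte genes were. So were 0 of 4 endothelial, 0 of 3 B and plasma cell, 0 of 2 erythroid, 0 of 6 smooth muscle and 4 of 4 osteoclast genes. Those 4, 2 of the called T cell genes and 1 of the called neutrophil genes had NC means below 0.1 FPKM and were tested only through other groups, so their counts are no support.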

Additional observations from a re-analysis of the deposited data

Results flagged for a closer look

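In 3 of the named members every H8 library lay below the NC mean of log2 CPM and every H24 library above it. For these named members the comparisons H8/NC and H24/NC had opposite directions. Members outside the named set were not searched for this pattern, and AP1G2 among them also had it. The mean log2 CPM of H24 exceeded that of H8 by 2.01 for NAGPA, 1.61 for TCIRG1 and 1.15 for ACP2. The difference was tested directly in H24/H8, where edgeR's quasi-likelihood test gave log2 fold changes of 2.05 for NAGPA, 1.84 for TCIRG1 and 1.10 for ACP2, each with an adjusted p of 0.336. Without H24 replicate 3 they were 1.299, 0.96 and 0.83. NAGPA read 0.679 FPKM in H8 replicate 2, the lowest of its 9 values, and the H24/H8 call of NAGPA was kept without that library.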

How the results depend on the processing

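No called result changed direction in any fit. H24/NC had 18 up-regulated members with the replicate block and 13 to 43 with 1 library left out, 0 to 2 down-regulated ones (0 without H24 replicate 3, NC replicate 2 or NC replicate 3, 2 without H24 replicate 2), and 14 (DESeq2) and 0 to 8 (leave-one-out) past the adjusted threshold. H8/NC had 1 up-regulated member with limma on log2(FPKM + 1), 2 with all 9 libraries in 1 fit and 4 to 8 with 1 library left out, 0 to 1 down-regulated (1 without H8 replicate 1), and 7 (DESeq2) and 0 to 1 (leave-one-out; 1 without H8 replicate 2) past the adjusted threshold. Its median log2 fold change, 0.20, was 0.039 with scaling by library size only, where all genes had -0.133, and 0.032 and 0.031 with limma, where all genes had -0.119 and -0.0793. It was 0.14 without H8 replicate 1, the lowest of its leave-one-out values. H24/H8 had 11 up-regulated members with limma on log2(FPKM + 1), 8 with the replicate block and 2 to 33 with 1 library left out, 0 to 1 down-regulated (1 without H24 replicate 2) and 4 past the adjusted threshold with DESeq2. Scaling by library size only moved the median of all genes in H24/H8 to 0.238. The cause of these shifts was not tested. Same-numbered libraries deviated together with correlations of only -0.048 to 0.082, so the numbers were not taken as pairs; the block moved H24/NC from 33 to 18. With 3 libraries per group, an exact permutation test over libraries cannot go below 0.1.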

Other observations

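Some genes that control or move lysosomes carry no Lysosome term. Of 21 genes of the MiT/TFE transcription factors and lysosomal mTORC1 control, 3 were up-regulated in H24/NC, against 9.95% of all genes. There, 1 was down-regulated, against 1.52% of all genes. Without H24 replicate 3, 1 was up-regulated, against 6.49% of all genes, and 1 down-regulated, against 186 of all 14578 genes tested. TFEC, a MiT/TFE factor of the myeloid lineage, read 0.0412, 0.409 and 0.327 FPKM in NC and 2.30, 0.229 and 19.2 in H24, a log2 fold change of 4.72 ± 1.59 with overlapping groups. SLC38A9, an arginine sensor on the lysosome, had 1.85 ± 0.58, and TPCN1, a lysosomal cation channel, 1.07 ± 0.34. RRAGD, a GTPase that recruits mTORC1, read 23.2, 12.9 and 24.3 FPKM in NC, 14.6, 10.2 and 17.3 in H8 and 8.03, 4.92 and 5.94 in H24, with every H24 library below every NC and H8 library, and a log2 fold change of -1.70 ± 0.30 (edgeR adjusted p = 0.132). In H24 replicate 3, RRAGD lay between the other H24 libraries.

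Of 17 genes for lysosome fusion and transport (HOPS, BORC, ARL8, RAB7A and SNARE proteins), 1 was up-regulated, against 9.95% of all genes. It was PLEKHM1, with a log2 fold change of 1.09 ± 0.46. Without H24 replicate 3, 0 were up-regulated, against 6.49% of all genes. The median log2 fold changes of these lists in H24/NC were 0.28 and 0.13, and 0.21 and -0.10 without H24 replicate 3, so that the sign of the latter rested on that library.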
